A study of Homo sapiens with 6 samples.

Results

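Small nucleolar RNAs (snoRNAs) and small Cajal body RNAs (scaRNAs) were examined in Ago-RIP-seq libraries of MDA-MB-231 cells, a line from a human breast cancer of the triple-negative type. In this assay AGO2, the protein that carries miRNAs, is pulled down from a cell lysate and the RNA bound to it is sequenced (AGO2-IP), beside the RNA that stays in the unbound lysate (flow-through). The cells were transfected with a miR-99b-5p mimic or with a scrambled control at 25 nM and harvested after 18 hours. There were 6 libraries, of which 4 came from mimic cells (AGO2-IP and flow-through of 2 replicates labelled as biological) and 2 from control cells (1 AGO2-IP and 1 flow-through), and no untransfected cells or IgG pull-down were analysed here. A supplementary table of the study lists the control libraries as replicates of one control and names no fraction for them, whereas the sample labels name one AGO2-IP and the other flow-through. The labels were followed here, and every value of the control fractions depends on them. The mimic is a synthetic oligonucleotide added in excess, so the mimic libraries do not show endogenous miR-99b-5p. The genes chosen carried the GENCODE biotype snoRNA or scaRNA and had a summed count of at least 50 over the 4 mimic libraries, which 31 of 991 annotated snoRNA and scaRNA genes reached, out of 60708 genes in the tables. They were 14 box C/D genes (SNORD), 11 box H/ACA genes (SNORA), 5 scaRNA genes (SCARNA) and 1 gene listed only as U3 (ENSG00000212195.2).

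Box C/D snoRNAs guide 2′-O-methylation of ribosomal RNA and box H/ACA snoRNAs guide its pseudouridylation, each as the RNA of a ribonucleoprotein (snoRNP) in the nucleolus. A few of them, U3, U13, U14 and U17 among them, act in the processing of ribosomal RNA precursors. The scaRNAs guide the same modifications on spliceosomal small nuclear RNAs in the Cajal body. Most human snoRNAs are cut from introns of host genes, and some have been described as sources of small RNAs that enter AGO2. Here 28 of the 31 genes lay within a host gene on the same strand, and SNORD3B-2, SNORD3A and SNORD13, which have their own promoters, lay in none.

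The sequences below are those of genes that the comparison of fractions turns on, with large fold changes in either direction or many counts, in the sense orientation and from GRCh38. SNORD3B-2, SNORD3A and SCARNA7 exceed 300 nucleotides and are not shown. Capitals mark box C (TGATGA, within 20 nucleotides of the 5′ end) and box D (CTGA, within 20 nucleotides of the 3′ end) in the SNORD, SCARNA and U3 genes, and ACA (within 10 nucleotides of the 3′ end) in the SNORA genes.
SNORD117 (chr6:31536374-31536449, minus strand, in a DDX39B intron): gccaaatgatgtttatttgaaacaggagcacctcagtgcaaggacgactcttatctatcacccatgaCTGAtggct
SNORD83A (chr22:39315213-39315307, minus strand, in RPL3): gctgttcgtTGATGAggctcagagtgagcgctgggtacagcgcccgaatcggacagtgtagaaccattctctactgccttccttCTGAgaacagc
SNORD14E (chr11:123058077-123058161, minus strand, in HSPA8): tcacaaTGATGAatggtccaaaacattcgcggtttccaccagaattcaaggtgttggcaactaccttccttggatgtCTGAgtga
U3 copy (chr17:58631641-58631836, minus strand, in TEX14): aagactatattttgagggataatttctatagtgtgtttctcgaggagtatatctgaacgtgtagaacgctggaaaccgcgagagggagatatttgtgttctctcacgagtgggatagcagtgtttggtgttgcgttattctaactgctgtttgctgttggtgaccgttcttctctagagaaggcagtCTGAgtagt
SCARNA6 (chr2:233288676-233288940, plus strand, in ATG16L1): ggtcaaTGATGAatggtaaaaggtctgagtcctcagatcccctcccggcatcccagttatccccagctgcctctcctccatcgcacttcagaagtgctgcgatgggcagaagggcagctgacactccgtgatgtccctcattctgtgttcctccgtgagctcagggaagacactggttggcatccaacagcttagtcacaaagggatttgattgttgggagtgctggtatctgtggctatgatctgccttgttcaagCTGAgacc
SNORA74B (chr5:173020728-173020928, plus strand, in ATP6V0E1): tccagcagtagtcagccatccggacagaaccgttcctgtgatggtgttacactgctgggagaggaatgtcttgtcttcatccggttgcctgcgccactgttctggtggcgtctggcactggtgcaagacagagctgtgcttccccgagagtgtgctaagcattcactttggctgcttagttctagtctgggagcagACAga
SNORA73B (chr1:28508559-28508762, plus strand, in RCC1 and SNHG3): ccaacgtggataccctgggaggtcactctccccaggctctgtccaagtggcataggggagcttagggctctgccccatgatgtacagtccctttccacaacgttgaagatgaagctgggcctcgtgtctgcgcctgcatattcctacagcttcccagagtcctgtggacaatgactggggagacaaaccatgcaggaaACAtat

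Both boxes C and D were found in 9 of the 14 SNORD genes (64.3%), against 63.3% of the 313 annotated SNORD genes, and ACA in 9 of the 11 SNORA genes (81.8%), against 82.2% of 214. Over all 991 genes, box C was present in 25.1%, box D in 47.6% and ACA in 40.0%. Mature miR-99b-5p is shown because the mimic carries its sequence, with its seed (bases 2 to 8) in capitals, as given by RefSeq on GRCh38.p14.
miR-99b-5p: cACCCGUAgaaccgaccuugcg
A transcript that pairs with bases 2 to 7 holds ACGGGT. None of the 31 genes held ACGGGT on the sense strand, and 5 of the 991 annotated genes did (0.505%), which says only that these letters are not in the 31 sequences.

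Counts on genes ranged from 7772149 to 48544756 a library, with the 2 control libraries the shallowest. In the control flow-through 43.4% of gene counts lay on mitochondrially encoded genes, against 0.0116% to 3.48% in the other libraries, and 73.7% (flow-through) and 76.7% (AGO2-IP) of the pairs in control libraries mapped to several places. Fractions of mimic and control cells therefore rest on libraries of unlike make-up. The mimic fractions differed from each other too. In the mimic AGO2-IP libraries 2.71% and 2.38% of the pairs mapped to several places, against 9.69% and 19.2% in the flow-through. Pairs that could not be given to 1 gene were 8.02% and 7.63% against 16.7% and 19.2%. Both kinds of pairs were left uncounted. Markers of the cell line (VIM, CD44, CAV1, AXL, MSN) were at 59.0 to 2729 counts per 1000000 gene counts (CPM) in every library, ESR1 and PGR were at 0.991 or less, ERBB2 and KRT8, listed as absent or low, were present (37.7 to 919.6), and PTPRC and PECAM1, immune and endothelial markers, were at 8.47 or less.

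Few annotated snoRNA genes were countable. Of the 991 genes, 705 had no count in the mimic libraries and 255 had 1 to 49. Just inside the minimum stood SNORD67 (56 counts), SNORD3A (58) and SCARNA6 (59), and just outside it SNORD104 (47), SNORD101 (44) and SNORA7B (43). Read pairs that touch exons of more than 1 gene are left uncounted by STAR, the aligner the authors used, and none of the 31 genes overlapped an exon of another gene, against 70.3% of the 960 other genes and 51.5% of the other SNORD genes without such an overlap. Among the snoRNAs of ribosomal RNA processing, SNORD118 (U8), SNORA73A (U17a), SNORD14B, SNORD14C and SNORD14D (U14) were at 0 in all 6 libraries, and each overlaps an exon of another gene (TMEM107, SNHG3, RPS13, HSPA8 and HSPA8). Their zeros are therefore no measure of these RNAs. SNORD14A, without such an overlap, had 27 counts over the mimic libraries. SCARNA15, which overlaps an exon of FSD2, was also at 0, and the 7 snoRNA or scaRNA genes that overlap an annotated miRNA gene had at most 3 counts (SNORA84).

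The 31 genes together took 185 and 70.2 CPM of the mimic AGO2-IP libraries (replicates 1 and 2), 262 and 106 CPM of the mimic flow-through libraries, 81.3 CPM of the control AGO2-IP and 123 CPM of the control flow-through. Replicate 1 was above replicate 2 in both mimic fractions. The SNORD genes held 69.1 CPM (95% Wilson interval 66.8 to 71.5) and 32.7 CPM (30.9 to 34.6) of the mimic AGO2-IP libraries, 127 CPM (124 to 131) and 87.2 CPM (84.7 to 89.9) of the flow-through libraries, and 41.9 and 57.3 CPM of the control AGO2-IP and flow-through. The SNORA genes held 24.8 and 7.57 CPM of the mimic AGO2-IP, 108 and 15.5 CPM of the mimic flow-through, and 22.3 and 37.6 CPM of the control fractions. The SCARNA genes held 3.94 and 1.18 CPM of the mimic AGO2-IP, 15.4 and 2.93 CPM of the mimic flow-through, and 8.17 and 26.4 CPM of the control fractions. So the SNORD share was lower in both mimic AGO2-IP libraries than in both flow-through libraries, but SNORD3B-2 carried this. Without it the SNORD genes held 27.2 and 15.6 CPM of the AGO2-IP and 16.1 and 32.3 CPM of the flow-through libraries, which overlap. With the U3 copy added they held 156 and 61.4 against 138 and 87.8 CPM, which also overlap. For the SNORA and SCARNA genes the range of the AGO2-IP libraries met that of the flow-through. With mitochondrially encoded genes left out, the control flow-through held 101 (SNORD), 66.4 (SNORA) and 46.6 (SCARNA) CPM. The Wilson intervals cover counting error within single libraries only, not the gap between replicates. No molecular identifiers are described for these reads, so copies of 1 molecule could not be told from separate molecules.

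3 genes held 75.2% of the counts of the 31 genes over the mimic libraries. They were SNORD3B-2 (10508 counts), the U3 copy (5707) and SNORA73B (5411). Per kilobase of annotated length, the level over the 4 mimic libraries was 162 CPM for the U3 copy, 142 for SNORA73B, 71.2 for SNORD3B-2, 45.9 for SNORD13, 43.4 for SNORD17 and 22.0 for SNORA23, and 14.3 or less for the other 25 genes. SNORD3B-2 is annotated at 791 nucleotides, longer than the U3 RNA itself. The strands of the 31 genes were about evenly used (46.5% to 60.9% of stranded counts in the first-strand column), so pairs from a snoRNA and from the pre-mRNA of its host intron, on either strand, cannot be told apart.

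**Figure D1:**
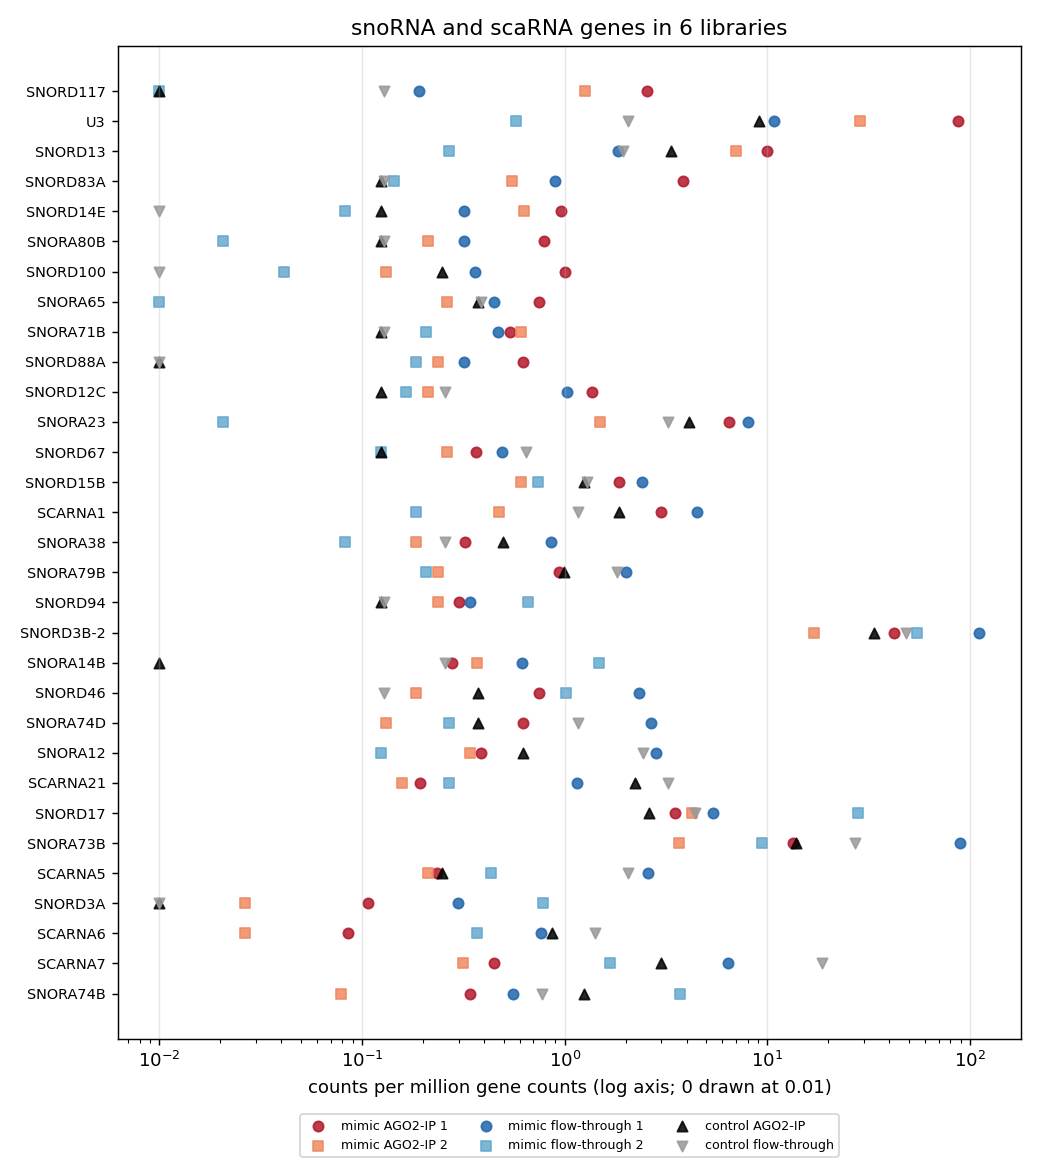
CPM (log axis, a 0 drawn at 0.01) of the 31 genes, 1 row a gene, ordered by fold change, with 1 point for each of the 6 libraries. SNORD117, the U3 copy and SNORD13, at the top, had both mimic AGO2-IP points to the right of both mimic flow-through points, and SCARNA7, SCARNA6 and SNORA74B, at the bottom, the reverse.

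To ask which snoRNAs and scaRNAs were found with AGO2 in mimic cells, the mimic AGO2-IP libraries were compared with the mimic flow-through libraries by edgeR's quasi-likelihood test over 16958 genes. Calls required a log2 fold change of 1 or more in size and a Benjamini-Hochberg adjusted p of at most 0.05, with p-values that measure the spread between 2 libraries a fraction. This fit had no term for the replicate number. None of the 31 genes was called in either direction, where 0.195% of all genes tested were called higher and 0.242% lower. At an unadjusted p under 0.05, 4 of the 31 were higher (12.9%, against 10.2% of all genes) and 7 were lower (22.6%, against 9.8%). With a term for the replicate number (the replicate block), edgeR called 3 of the 31 higher (SNORD117, the U3 copy and SNORD13) and 1 lower (SCARNA7), where 4.1% of all genes were called higher and 3.17% lower. PyDESeq2 called these same 4 genes and, as lower, SNORA74B, where 5.67% of all genes were called higher and 4.86% lower, and it gave 12 of the 31 no adjusted p. With the replicate block and each library's GC trend removed, edgeR called 4 of the 31 higher (the same 3 and SNORD83A) and 3 lower (SCARNA7, SCARNA5 and SCARNA6), where 11.2% of all genes were called higher and 7.47% lower. With flow-through replicate 1 left out, 20 of the 31 genes kept 50 counts over 2 AGO2-IP libraries and 1 flow-through library. That sum favours genes high in the AGO2-IP, such as SNORD117 with 119 and 48 counts against 0. SCARNA5, SCARNA6 and SCARNA21 fell below it. Log2 fold changes of genes kept included 9.37 (SNORD117), 7.31 (SNORA23) and 6.54 (the U3 copy), and -4.19 (SNORA74B) and -2.95 (SNORD17). With flow-through replicate 2 left out, 27 genes kept 50 counts, among them SNORD117 (3.55), the U3 copy (2.67), SNORA73B (-3.14) and SCARNA7 (-3.79). The flow-through is then 1 library, assumed to vary as the AGO2-IP pair does, so no calls of the 31 genes are given for these fits.

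Among the 14 SNORD genes 8 had a fold change above 0 and 6 below, with a median log2 fold change of 0.44. Among the 11 SNORA genes 4 were above 0 and 7 below (median -0.65). All 5 SCARNA genes were below 0 (median -2.49). SCARNA5, SCARNA6, SCARNA7 and SCARNA21 had few AGO2-IP counts (21 and 12 at most, in SCARNA7) and reached 50 only through the flow-through libraries. A value below 0 was therefore favoured for them by the choice of genes, while SCARNA1 was at -0.18. Neither that count nor the SCARNA median is a result about the class. The median over all genes tested was -0.17. When single AGO2-IP libraries were set against single flow-through libraries, the median ranged from -0.42 to 1.36 for SNORD, from -2.0 to 1.31 for SNORA and from -3.05 to -0.84 for SCARNA, so the SNORD and SNORA medians had no fixed sign and the SCARNA median stayed below 0 in all 4 pairs. With flow-through replicate 1 left out, the SCARNA median was 0.44, over the 2 genes that then kept 50 counts. Both AGO2-IP libraries lay above both flow-through libraries for 5 of the 31 genes (16.1%, against 26.4% of all genes) and below both for 9 (29.0%, against 27.5%), shares near or under those of all genes. Of these 9, 4 were SCARNA genes.

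**Figure D2:**
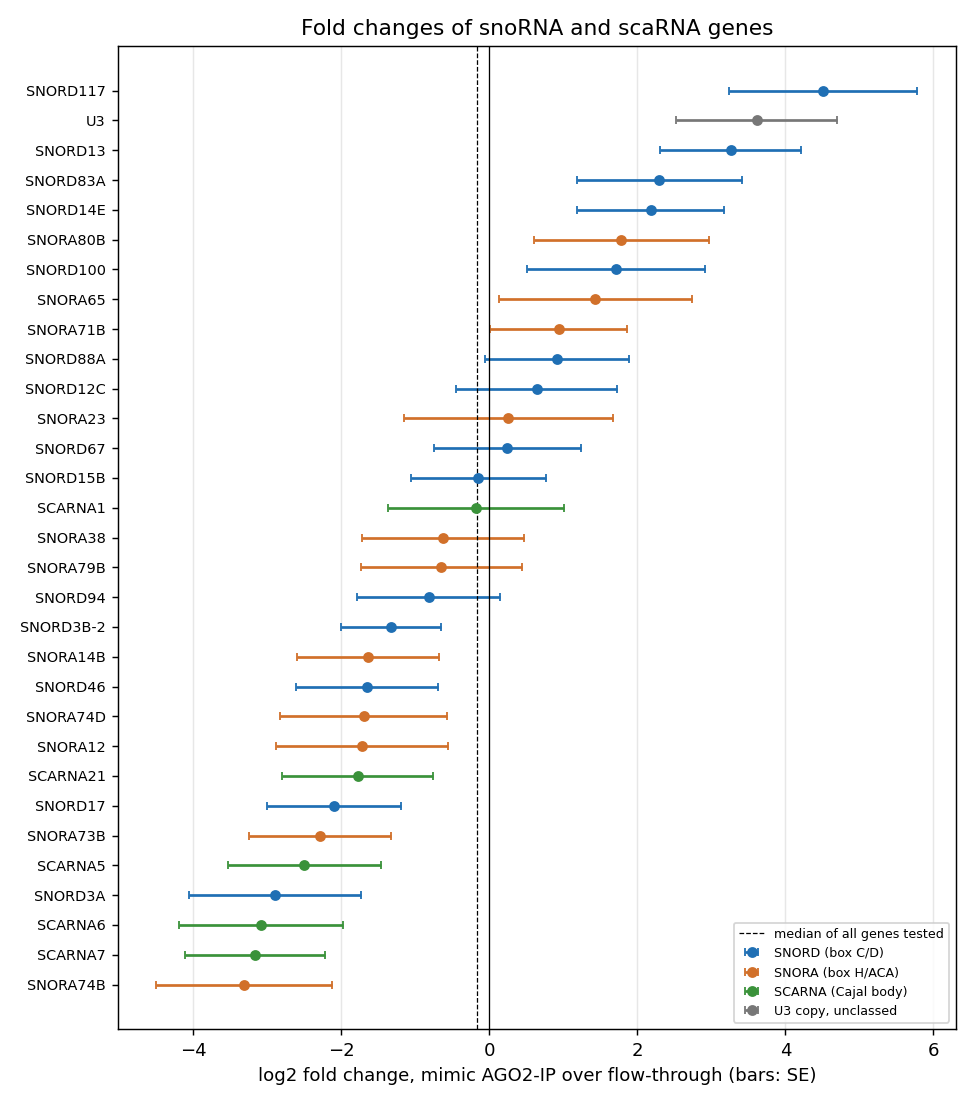
Log2 fold change of each of the 31 genes, mimic AGO2-IP over mimic flow-through (points, with standard errors as bars, n = 2 libraries a fraction), coloured by class, with the median of all 16958 genes as a dashed line. The values run from -3.31 (SNORA74B) to 4.51 (SNORD117), and the 5 SCARNA genes all lie below 0.

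SNORD117 had 119 and 48 counts in AGO2-IP replicates 1 and 2 of mimic cells and 9 and 0 in the flow-through libraries, or 2.55 and 1.26 against 0.191 and 0 CPM. Both AGO2-IP libraries were above both flow-through libraries, although the counts were low. Its log2 fold change was 4.51 ± 1.27 (SE), the largest of the 31, with an edgeR adjusted p of 0.105 that became 0.000156 with the replicate block (log2 fold change 4.90) and 0.00196 in PyDESeq2.

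The U3 copy in TEX14 is one of several sequences related to U3, the snoRNA of pre-18S cleavage, and matched SNORD3A at 74.3% over 179 nucleotides. It had 4078 and 1093 counts in the AGO2-IP of mimic cells and 508 and 28 in the flow-through, or 87.2 and 28.7 against 10.8 and 0.577 CPM. The groups did not overlap, and the 2 libraries of each fraction differed several-fold. The log2 fold change was 3.61 ± 1.09 (SE), with an edgeR adjusted p of 0.120 that became 0.000146 with the replicate block (4.41) and 0.00489 in PyDESeq2. It was also the gene of the 31 with the highest CPM in both mimic AGO2-IP libraries.

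The annotated U3 genes themselves went the other way. SNORD3B-2 had 1959 and 649 counts in the AGO2-IP of mimic cells and 5232 and 2668 in the flow-through (41.9 and 17.1 against 111 and 55.0 CPM). Both AGO2-IP libraries were below both flow-through libraries, with a log2 fold change of -1.33 ± 0.67 (SE) and an edgeR adjusted p of 0.287. SNORD3A had 5 and 1 counts against 14 and 38 (log2 fold change -2.89 ± 1.16, adjusted p = 0.20, edgeR). SNORD3A and SNORD3B-2 each have 4 copies of at least 95% identity in the genome, and pairs that map to several copies were left uncounted, so the counts of single U3 genes are uncertain.

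SNORD13 (U13), which guides the acetylation of 18S rRNA, had 467 and 267 counts in the AGO2-IP of mimic cells and 86 and 13 in the flow-through, or 9.99 and 7.02 against 1.83 and 0.268 CPM. The groups did not overlap. Its log2 fold change was 3.26 ± 0.96 (SE), with an edgeR adjusted p of 0.113 that became 0.00117 with the replicate block (3.64) and 0.00292 in PyDESeq2. It has 1 other copy of at least 95% identity in the genome.

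The other short SNORD genes had fold changes above 0 with wide errors, except SNORD46. None was called in a fit of all 4 mimic libraries without the block. SNORD83A, encoded in RPL3, had 180 and 21 counts against 42 and 7 (log2 fold change 2.30 ± 1.11, adjusted p = 0.269, edgeR, and 0.0102 with the replicate block and GC trend removed), and its groups overlapped. SNORD14E, a U14 gene that takes part in 18S rRNA processing, had 45 and 24 counts against 15 and 4 (2.18 ± 1.0, adjusted p = 0.248), without overlap. SNORD100 had 47 and 5 counts against 17 and 2 (1.71 ± 1.20), SNORD88A 29 and 9 against 15 and 9 (0.92 ± 0.98), and SNORD12C 64 and 8 against 48 and 8 (0.64 ± 1.09). In these 3 genes the groups overlapped, replicate 1 being the higher in each fraction. SNORD67 (0.25 ± 0.99) and SNORD15B (-0.15 ± 0.91) were close to 0. SNORD46, with 35 and 7 counts against 109 and 49, was below 0 without overlap (-1.65 ± 0.96, adjusted p = 0.347, edgeR).

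SNORD17, a guide of 28S rRNA methylation and one of the longer SNORD genes at 237 nucleotides, had 163 and 162 counts in the AGO2-IP of mimic cells and 252 and 1363 in the flow-through. The AGO2-IP libraries were alike (3.49 and 4.26 CPM) and flow-through replicate 2 stood high (28.1 against 5.36 CPM). The log2 fold change was -2.10 ± 0.91 (SE), with an adjusted p of 0.228 (edgeR), and it was -0.20 with flow-through replicate 2 left out. SNORD94 had 14 and 9 counts against 16 and 32 (-0.82 ± 0.97).

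SNORA73B (U17b), the box H/ACA snoRNA of pre-18S processing, had 624 and 139 counts in the AGO2-IP of mimic cells and 4191 and 457 in the flow-through, or 13.3 and 3.66 against 89.2 and 9.41 CPM. Flow-through replicate 1 was far above the rest and flow-through replicate 2 lay between the AGO2-IP libraries, so the groups overlapped. The log2 fold change was -2.28 ± 0.96 (SE), with an adjusted p of 0.213 (edgeR), and it was -0.25 with flow-through replicate 1 left out. SNORA74B had 16 and 3 counts against 26 and 179, below in both AGO2-IP libraries (-3.31 ± 1.19, adjusted p = 0.164, edgeR, and 0.0301 in PyDESeq2), and most of its flow-through counts came from replicate 2. SNORA23, with 301 and 57 counts against 379 and 1, overlapped (0.26 ± 1.41, edgeR adjusted p = 0.932), its 1 count in flow-through replicate 2 standing far from the 379 of replicate 1. Without flow-through replicate 1 its log2 fold change was 7.31, and without flow-through replicate 2 it was -0.78. SNORA74D had 29 and 5 counts against 125 and 13 (-1.69 ± 1.13) and SNORA12 18 and 13 against 132 and 6 (-1.72 ± 1.16), both with overlap. Including these, the other 8 SNORA genes had log2 fold changes from -1.72 (SNORA12) to 1.79 (SNORA80B), none with an unadjusted p under 0.05, and among them SNORA71B was the 1 gene with both AGO2-IP libraries above both flow-through libraries (25 and 23 counts against 22 and 10) and SNORA14B the 1 gene with both below (13 and 14 against 29 and 72).

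SCARNA7, a guide of U1 small nuclear RNA methylation encoded in KPNA4, had 21 and 12 counts in the AGO2-IP of mimic cells and 300 and 81 in the flow-through, or 0.449 and 0.316 against 6.38 and 1.67 CPM. Both AGO2-IP libraries were below both flow-through libraries. Its log2 fold change was -3.16 ± 0.94 (SE), with an edgeR adjusted p of 0.117 that became 0.00986 with the replicate block (-3.0) and 0.00619 in PyDESeq2. SCARNA5 and SCARNA6, a pair in introns of ATG16L1 that belong to the guides of U5 small nuclear RNA, had 11 and 8 counts against 121 and 21 (-2.49 ± 1.03, adjusted p = 0.209, edgeR) and 4 and 1 against 36 and 18 (-3.08 ± 1.11, adjusted p = 0.166). Both were without overlap, and with the replicate block and GC trend removed their edgeR adjusted p was 0.0456 and 0.0447. SCARNA21 had 9 and 6 counts against 54 and 13 (-1.77 ± 1.02), without overlap, and SCARNA1 had 139 and 18 against 212 and 9 (-0.18 ± 1.19), with overlap. These are bulk libraries, so where mimic and control cells are compared, fewer cells that hold an RNA and less of it per cell cannot be told apart.

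The 31 genes moved with the replicate. Replicate 1 was above replicate 2 for 28 of the 31 in the AGO2-IP (90.3%, against 50.2% of all genes tested) and for 26 of the 31 in the flow-through (83.9%, against 52.5%), on the normalized log2 scale. The median difference was 1.19 for the AGO2-IP and 1.99 for the flow-through, where those of all genes tested were 0.00243 and 0.0999. The exceptions in the AGO2-IP were SNORD17, SNORA14B and SNORA71B, and those in the flow-through were SNORD17, SNORA14B, SNORA74B, SNORD94 and SNORD3A. The difference between replicates was at least the size of the gene's log2 fold change for 12 of the 31 in the AGO2-IP, for 16 in the flow-through and for 9 in both. Replicates of cultures, lysates and libraries cannot be told apart here.

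**Figure D3:**
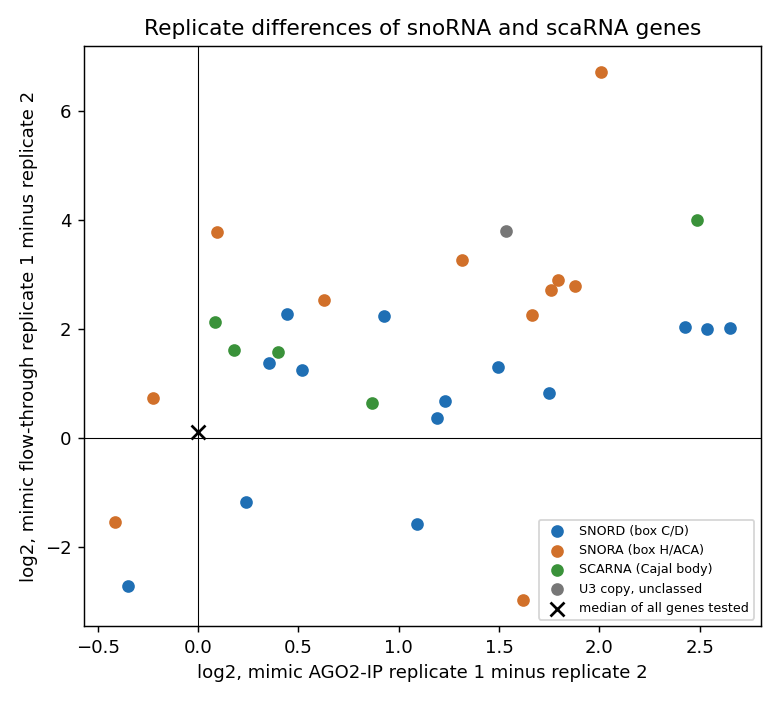
Replicate 1 minus replicate 2 on the log2 scale in the mimic AGO2-IP (horizontal) and in the mimic flow-through (vertical) for the 31 genes, coloured by class, with the median of all genes tested as a cross. Most points lie in the upper right, with 28 of 31 above 0 horizontally and 26 of 31 above 0 vertically.

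Fold change went with length. Across the 31 genes Spearman's rho between annotated length and the log2 fold change was -0.66, where over 16928 of the genes tested, which share the same libraries, it was 0.23. Within the 14 SNORD genes it was -0.78 and within the 11 SNORA genes -0.37. Of the 9 genes of 76 to 111 nucleotides, all SNORD, 8 had a log2 fold change above 0 (median 1.71), SNORD46 being the exception. Of the 22 genes of 130 to 791 nucleotides 5 had a fold change above 0 (median -1.48). The split at 120 nucleotides was made after the values were seen. The choice of genes favoured the sign of some. SNORD117, SNORD83A, SNORD14E and SNORD100, short and above 0, reached the minimum count only through the AGO2-IP libraries. SNORA12, SNORA14B, SNORA74B, SNORA74D, SNORD3A, SCARNA5, SCARNA6, SCARNA7 and SCARNA21, longer and below 0, reached it only through the flow-through, as did the short SNORD46. The part of this choice in the rho of -0.66 and in the split was not tested. GC content went with the fold change of all genes (rho -0.47) and little with that of the 31 (-0.10). It went more strongly with the difference between flow-through replicates 1 and 2, at -0.66 over all genes and -0.38 over the 31. Length went with that replicate difference within the SNORD genes (-0.62), but little over the 31 (-0.12) or within the SNORA genes (-0.07). So neither trait goes with the fraction alone. Libraries were size selected on magnetic beads per the study's methods, and the part of that step, which was not measured, was not tested. Genes are not independent replicates, and class and length are tied.

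**Figure D4:**
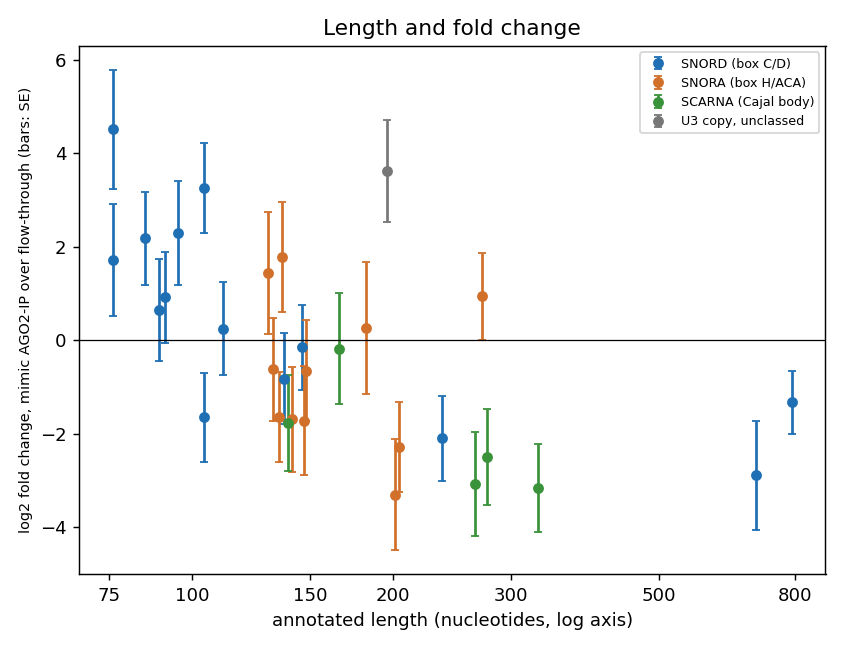
Annotated length in nucleotides (horizontal, log axis) and log2 fold change, mimic AGO2-IP over flow-through (vertical, with standard errors as bars), of the 31 genes, coloured by class. Genes under 120 nucleotides lie above 0 but for SNORD46, and the 3 longest SCARNA genes lie at -2.49 or below.

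The host genes did not share the fold changes of the RNAs they encode. Each of the 28 intronic genes was set beside its most counted host, and none of these hosts was called by edgeR. The member and the host had the same sign in 11 of the 28, with a Spearman's rho of -0.17 across the 28, which share libraries and in 1 case a host. SNORD117 (4.51) lay in DDX39B, a splicing helicase gene, with a log2 fold change of -0.09 ± 0.70 (SE). SNORA65 (1.44) and SNORD100 (1.71) lay in the ribosomal protein genes RPL12 (-3.52 ± 0.77, edgeR adjusted p = 0.0635) and RPS12 (-3.37 ± 0.78, adjusted p = 0.0682), both called lower with the replicate block (adjusted p = 0.00238 and 0.00459). SCARNA7 (-3.16) lay in KPNA4, an importin gene, at 0.58 ± 0.71, and SCARNA5 and SCARNA6 (-2.49 and -3.08) in ATG16L1, an autophagy gene, at 0.80 ± 0.64. The U3 copy (3.61) lay in TEX14, which had 144 and 81 counts in the AGO2-IP of mimic cells and 36 and 66 in the flow-through (1.36 ± 0.85), fewer than the snoRNA copy in every mimic library but flow-through replicate 2. SNORA80B (1.79) and its host ODC1, the ornithine decarboxylase gene, were both above 0 (2.50 ± 0.65, adjusted p = 0.0867, and 0.0101 with the replicate block).

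**Figure D5:**
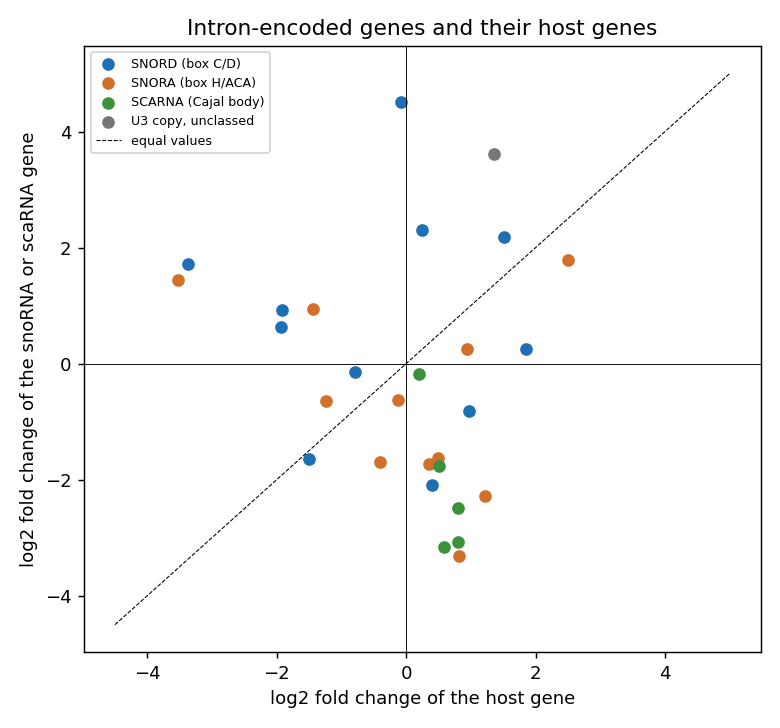
Log2 fold change, mimic AGO2-IP over flow-through, of 28 intronic snoRNA and scaRNA genes (vertical) against that of their most counted host gene (horizontal), with equal values as a dashed line. The points do not follow the line, and 11 of 28 have the same sign on both axes.

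Of 24 genes for snoRNP proteins and their assembly factors, edgeR called 1 higher in the mimic AGO2-IP (DKC1) and 0 lower, where 0.195% and 0.242% of all genes were called. At an unadjusted p under 0.05, 7 were higher and 2 lower, beside 10.2% and 9.8% of all genes. Of the 24, 18 were above 0, against 45.4% of all genes, and their median log2 fold change was 0.82, beside -0.17 over all genes tested. These are mRNA counts and say nothing of the proteins. DKC1, the pseudouridine synthase of box H/ACA snoRNPs, had 36735 and 35088 counts in the AGO2-IP of mimic cells and 5165 and 2626 in the flow-through, without overlap (log2 fold change 3.57 ± 0.65 SE, adjusted p = 0.0436, edgeR). The edgeR adjusted p rose above 0.05 at library size alone (0.0807) and in either strand column (0.0586 and 0.0761), when none of the 24 was called. In these fits, and without AGO2-IP replicate 1 or 2, the log2 fold change stayed between 3.37 and 3.70. Without flow-through replicate 1 edgeR called 9 of the 24 higher and 3 lower, beside 19.1% and 16.5% of all genes, and without replicate 2 it called 2 higher and 1 lower, beside 2.15% and 2.73%. With the replicate block 4 of the 24 were called higher (DKC1, GAR1, COIL and NOLC1) and 0 lower, beside 4.1% and 3.17% of all genes. PyDESeq2 called 5 higher (these 4 and RUVBL1) and 2 lower (NHP2, adjusted p = 0.0488, and WRAP53, 0.0267), beside 5.67% and 4.86% of all genes.

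Of the other box H/ACA core genes, GAR1 had 12330 and 8313 counts in the AGO2-IP against 1566 and 269 in the flow-through (3.88 ± 0.82, edgeR adjusted p = 0.0591, and 7.2e-05 with the replicate block). NHP2 had 462 and 593 against 3587 and 1594 (-1.90 ± 0.69, adjusted p = 0.166), and NOP10 had 976 and 1567 against 3130 and 453 (-0.02 ± 0.81). So among all box H/ACA core genes DKC1 and GAR1 were above 0, NHP2 was below and NOP10 was close to 0. Of the box C/D core genes, FBL, the methyltransferase, was at 0.89 ± 0.63, NOP58 at 1.63 ± 0.64 (unadjusted p = 0.0256, edgeR), SNU13 at 0.76 ± 0.61 and NOP56 at -0.36 ± 0.60, and none was called. Among the other genes of the list, COIL, which makes the coilin of Cajal bodies, had 3675 and 2538 counts against 980 and 399 (2.52 ± 0.68, adjusted p = 0.0955, and 0.0225 with the replicate block). NOLC1, a nucleolar and Cajal body chaperone, had 18928 and 18874 against 7759 and 2688 (2.24 ± 0.65, adjusted p = 0.112, and 0.0276 with the block). RUVBL1, an ATPase of snoRNP assembly, was at 2.16 ± 0.61 (adjusted p = 0.106, edgeR), SHQ1, a chaperone of DKC1, at 1.40 ± 0.63 (adjusted p = 0.246) and WRAP53, which brings scaRNAs to Cajal bodies, at -2.09 ± 0.70 (adjusted p = 0.147). The other 11 genes of the list, assembly and transport factors, all had an unadjusted p above 0.05 in edgeR. Above 0 were NOPCHAP1 (0.33 ± 0.67), NUFIP1 (0.33 ± 0.74), PIH1D1 (0.49 ± 0.61), RPAP3 (1.34 ± 0.86), ZNHIT3 (0.03 ± 0.69), ZNHIT6 (0.92 ± 0.65), PHAX (1.06 ± 0.61), TGS1 (1.27 ± 0.72) and XPO1 (0.66 ± 0.60), and below 0 were NAF1 (-0.71 ± 0.66) and RUVBL2 (-1.23 ± 0.61).

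The control fractions, with 1 library each, give values without a test. Of the 31 genes 6 had at least 50 counts over the 2 control libraries, and of these 1 had a log2 ratio of AGO2-IP over flow-through of at least 1 (16% of 11149 genes did) and 4 had one of at most -1 (18.2% did). The U3 copy had 73 counts with AGO2 and 16 in the flow-through of control cells, a CPM ratio of 4.39 (exact 95% interval 2.53 to 8.08) and a log2 ratio of 1.26 after TMM normalization. It was higher in the AGO2-IP of control cells too, as in mimic cells. SCARNA7 had 24 and 144 counts, a CPM ratio of 0.160 (0.10 to 0.248) and a log2 ratio of -3.31, and was the lowest of the 6. SNORA73B had 112 and 210 counts (CPM ratio 0.513, interval 0.404 to 0.649, log2 ratio -1.74) and SNORD3B-2 had 270 and 375 (0.693, 0.590 to 0.812, log2 ratio -1.32). SNORD17 had 21 and 34 counts (0.594, 0.328 to 1.05, log2 ratio -1.44) and SNORA23 had 33 and 25 (1.27, 0.733 to 2.23, log2 ratio -0.42), and both intervals of the CPM ratio include 1. The sign on the TMM scale was that of the mimic fold change for 5 of these 6 genes, all but SNORA23. The TMM scale puts all 6 lower than CPM does, and the intervals cover counting error only. SNORD13 had 27 and 15 counts in these libraries, too few for the minimum of 50, and SNORD117 had 0 and 1.

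To ask what differed between mimic and control cells, each fraction was compared across them, again without a test since the control has 1 library a fraction. In the AGO2-IP 15 of the 31 genes had at least 50 counts over the 3 libraries. Of these 6 had a mimic-over-control log2 ratio of 1 or more (17.8% of 14121 genes did) and 1 had one of at most -1 (18.5% did). The control library is the shallower, and 5 of the 15, all SNORD, had at most 2 counts in it and reached 50 counts only through the mimic libraries, so a high ratio was favoured for them by the choice of genes. They are 4 of the 6 genes at 1 or more, and neither that count nor the SNORD median is a result about the class. The medians were 1.5 over 9 SNORD genes, -0.76 over 3 SNORA genes and -1.50 over 2 SCARNA genes. The 2 mimic libraries taken alone gave 1.90 and 0.92 for SNORD, 0.11 and -1.60 for SNORA, and -0.79 and -2.20 for SCARNA. The U3 copy was at 87.2 and 28.7 CPM in the mimic and 9.04 CPM in the control AGO2-IP (log2 ratio 2.66) and SNORD13 at 9.99 and 7.02 against 3.34 CPM (1.5). SNORD117, at 0 in the control, was at least 5.13-fold higher in the mimic AGO2-IP, with 3 counts in the control library as the floor (0.371 CPM). SNORD83A had 180 and 21 counts in the mimic and 1 in the control (3.85 and 0.552 against 0.124 CPM). Its CPM ratio over the summed mimic counts was 19.2 (exact 95% interval 3.40 to 760.1). The interval covers counting error only, not the gap between replicates. SNORD117 and SNORD83A are among the 5 genes that reached 50 counts only through the mimic libraries, so their high ratios were favoured by the choice of genes. SCARNA7 was lower, at 0.449 and 0.316 against 2.97 CPM (-2.59).

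In the flow-through 21 of the 31 genes had enough counts. Of these 4 had a mimic-over-control log2 ratio of 1 or more (13.6% of 15769 genes did) and 8 had one of at most -1 (12.3% did). Of the 4, 3 (SNORD3A, SNORD46 and SNORA14B) had 0, 1 and 2 counts in the control and reached 50 only through the mimic libraries, so the same limit holds. The medians were 0.61 over 8 SNORD genes (0.29 with SNORD3A, at 0 in the control, set at its floor of 3 counts), -0.76 over 7 SNORA genes and -1.70 over 5 SCARNA genes. The single mimic libraries gave 0.93 and -0.02 for SNORD, 0.58 and -2.11 for SNORA, and -1.41 and -2.54 for SCARNA. SCARNA7 was again lower in mimic cells, at 6.38 and 1.67 against 18.5 CPM (-2.88), and so lower in both fractions of the mimic than of the control. SNORD13 was at 1.83 and 0.268 against 1.93 CPM in the control flow-through (-1.74), on 15 control counts. Mimic replicate 1 was close to the control in CPM (log2 ratio -0.66 after TMM) and replicate 2 was lower (-2.83). In the AGO2-IP both mimic libraries were above the control (1.72 and 1.28). The U3 copy was at 10.8 and 0.577 against 2.06 CPM (-0.08), the mimic libraries lying on either side of the control.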

How the data were processed

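The authors used FastQC 0.11.9, cutadapt 3.5 for trimming and STAR 2.7.11b (2-pass mode, GRCh38), whose quant mode gave the gene counts they deposited; the annotation release is not given in the sources used here. The deposited counts are whole numbers of uniquely mapped pairs without normalization, and the unstranded column was used because the strands were about evenly used. Rows that name no gene held 21.4% to 95.0% of the pairs and entered neither library sizes nor tests. Gene names, biotypes and coordinates came from GENCODE 44, which held 60463 of the 60708 identifiers.

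The 31 genes and the lists of snoRNP genes and markers were chosen with earlier results of these data known. Named genes were any called member, the 4 members of each class with the highest mean CPM, the 5 largest increases and 5 largest decreases with at least 50 counts in every library of the higher fraction, the snoRNAs of rRNA processing, members over miRNA genes and SCARNA15, members at the minimum count, the 24 snoRNP genes and host genes of named members. The other members were named after their values were seen.

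edgeR 4.0.16 (R 4.3.3, limma 3.58.1) was run with TMM normalization on the 4 mimic libraries, over genes reaching a sum of 50 counts. Each standard error (SE) is the log2 fold change's size over the square root of the F statistic. Control values are TMM-scaled log2 CPM differences (prior count 2), for genes reaching 50 counts in the libraries compared. The main fit held no term for the replicate number, so its calls, adjusted p-values and standard errors do not use pairs. Only the replicate block took fractions with the same replicate number as pairs, since the labels give both the same biological replicate number. A flow-through is what a pull-down leaves, but that the fractions share a lysate is not stated. Overlap was judged over all 4 pairs of libraries. Groups that overlap can still differ in 1 direction within both replicate numbers, as for SNORA73B (-2.46 and -1.36) and SNORD83A (2.31 and 1.67), unlike SNORA23 (-0.05 and 4.64). Same-numbered libraries deviated together across 16958 genes (Pearson's r 0.342, Spearman's rho 0.270), and values with the replicate block are given where they change a call. PyDESeq2 0.5.4, DESeq2's size factors (DESeq2 1.42.0), library size alone, a minimum count of 200 or none, single strand columns, all 6 libraries in 1 fit, a GC trend correction (lowess span 0.2), a prior count of 0.5 and left-out libraries were tried as alternatives. Copies were searched with blastn 2.17.0. The scripts were tested on simulated data.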

Additional observations from a re-analysis of the deposited data

Results flagged for a closer look

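In 7 genes of the snoRNP list all 4 pairs of mimic libraries differed in 1 direction between the fractions while the control ratio had the opposite sign. Only 6 of the 31 snoRNA and scaRNA genes had a control ratio. Of those, only SNORD3B-2, the U3 copy and SCARNA7 had all 4 pairs in 1 direction, with the control ratio of the same sign. Most of the 31 could therefore not be flagged, and they form no contrast with the snoRNP list. The control log2 ratio of AGO2-IP over flow-through was 0.099 for NAF1, lower in the mimic AGO2-IP. It was -0.62 for RPAP3, -1.08 for ZNHIT6, -0.046 for NOLC1, -0.67 for PHAX, -0.62 for TGS1 and -0.67 for XPO1, all higher in the mimic AGO2-IP. Whether mimic and control differ was not tested, as the control has 1 library a fraction. At library size alone the control log2 ratio was above 0 for RPAP3 (0.159), NOLC1 (0.75), PHAX (0.117), TGS1 (0.158) and XPO1 (0.124), so the opposite sign was kept for NAF1 (0.874) and ZNHIT6 (-0.292). Opposite signs of this kind were found in 11.6% of 11118 genes with both values.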

How the results depend on the processing

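The count of genes called higher, 0, became 3 without a count filter and 3 with the replicate block. It became 4 with the block and the GC trend removed and 3 in PyDESeq2. The count called lower, 0, became 1, 3 and 2 with the block, with the block and the GC trend removed and in PyDESeq2. With the block 4.1% of all genes were called higher and 3.17% lower. These shares were 11.2% and 7.47% with the block and the GC trend removed, and 5.67% and 4.86% in PyDESeq2. Both stayed at 0 with DESeq2's size factors, library size alone, a minimum of 200, either strand column, all 6 libraries in 1 fit and the adjusted p alone. The snoRNP count, 1, was 0 at library size alone and in each strand column, 3 without a filter, 4 with the block, 7 with the block and GC, 7 in PyDESeq2, and 0 to 12 with a library left out.

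The SNORD median was -0.88 (6 genes) at a minimum count of 200 and -0.56 in the second strand column, and the SNORA median was -2.40 (3 genes) at 200 and -1.72 and -1.80 (7 genes each) in the strand columns. With a library left out the SNORD, SNORA and SCARNA medians ran from -1.17 to 2.15, from -1.78 to 0.56 and from -2.84 to 0.44. With the replicate block they were 0.47, -0.39 and -2.18. At library size alone the control medians were -0.61, -0.31 and -2.54 for SNORD, SNORA and SCARNA. With mitochondrially encoded genes left out, the control flow-through shares were 101, 66.4 and 46.6 CPM. All 31 genes overlap no other exon, so that restriction changed nothing.

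Signs turned at library size alone for SNORA23 (-0.025) and ZNHIT3 (-0.163), with size factors for NOP10 (0.014), without a filter for SNORD15B (0.024) and NOP10 (0.088), with the replicate block for SCARNA1 (0.38) and NOP10 (0.36), and in PyDESeq2 for NOP10 (0.014). With the block and GC they turned for NOPCHAP1 (-0.41), NUFIP1 (-0.52), ZNHIT3 (-0.44) and XPO1 (-0.19), and for ZNHIT3 also at a minimum of 200 (-0.11) and in the strand columns (-0.34 and -0.52). With a library left out, SNORA23 ran from -1.10 to 7.31, SCARNA1 from -1.99 to 3.09, SNORD15B from -1.14 to 0.63, SNORA79B from -1.92 to 1.41, SNORD12C from -1.21 to 2.15, NOP10 from -0.82 to 1.65, NOPCHAP1 from -0.23 to 0.71, NUFIP1 from -0.092 to 0.63, PIH1D1 from -0.012 to 0.81 and ZNHIT3 from -0.44 to 0.61, and SNORD67 was -0.38 in the 1 fit that kept it. Of 258 values of the 31 genes under the alternatives that keep all libraries, 236 kept their direction and side of the threshold, 19 passed it and 3 turned. The causes were not tested. Depth limits most of these genes, since 22 of the 31 had fewer than 10 counts in a mimic library.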
